A study of Mus musculus with 33 samples.

Results

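The transcriptomes compared here were those of 6 single germinal vesicle (GV) oocytes without NLRP5, 4 at the non-surrounded nucleolus (NSN) stage and 2 at the surrounded nucleolus (SN) stage, out of 33 oocytes in the series. NSN oocytes 13, 14, 29 and 30 were set against SN oocytes 7 and 31, which are all the *Nlrp5*-/- (null) oocytes with a stage. Oocyte 15, also *Nlrp5*-/-, carries no stage and was left out. The mutant allele is a small CRISPR/Cas9 deletion that gives a premature stop codon, in a line on the C57BL6/Babr background, and every oocyte came from a female of 3 weeks. The same stage comparison was read in *Nlrp5*+/+ oocytes (4 NSN and 6 SN) and, as a second reference, in *Nlrp5*+/- oocytes (9 NSN and 7 SN), all of the same strain and age, and no oocyte is shared between genotypes. The question was which stage differences are present when NLRP5 is absent. The study inferred stage after sequencing, from a list of marker genes measured in the same libraries, so every stage difference below is a description, and genes outside the marker list are not independent of the call either. Each library is 1 oocyte and the labels name no mouse, so the oocytes of 1 genotype and stage were taken as 1 sample, and no p-value or standard error was derived.

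A fully grown oocyte is arrested in meiotic prophase with its nucleus, the germinal vesicle, intact. In the NSN state chromatin is spread through the nucleus and genes are still transcribed, whereas in the SN state chromatin has condensed in a ring around the nucleolus and transcription has largely stopped, so that later differences in mRNA level also reflect which stored transcripts persist. NLRP5 (also called MATER or NALP5) is a core protein of the subcortical maternal complex, an assembly of abundant oocyte proteins that early embryos need for cleavage.

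The 6 libraries held 4225037 to 11416257 counts on genes. *Nlrp5* itself stood at 190 to 328 CPM (counts scaled to a library total of 1000000) in the 6 oocytes and at 1295 to 3896 CPM in the *Nlrp5*+/+ oocytes, with no overlap, and its level did not separate the stages of the null oocytes (log2 difference 0.09). *Dppa4*, a nuclear factor of early embryos, was at 0 in oocytes 13, 29 and 31 and at no more than 0.870 CPM in the other null oocytes, whereas *Nlrp5*+/+ oocytes held 8.32 to 26.1 CPM. The oocyte genes *Gdf9* (7485 to 10325 CPM) and *Zp3* (2283 to 3887 CPM) were abundant in all 6. Markers of other ovarian cells were detected at a low level and unevenly. Some of them also differed between the stages in *Nlrp5*+/+ oocytes, *Cyp19a1* being higher in SN (log2 1.19) and *Inhba* (-2.16) and *Ptch1* (-3.08) lower. Whether the signal comes from such cells or from the oocyte was not tested. The 16 granulosa cell markers summed to 256, 437, 84.7 and 102 CPM in NSN oocytes 13, 14, 29 and 30 and to 188 and 130 CPM in SN oocytes 7 and 31, while *Nlrp5*+/+ oocytes had 76.4 to 124 CPM. For the 9 theca and interstitial markers the sums were 50.9, 256, 18.2, 31.1, 29.1 and 18.1 CPM in the same order, against 13.4 to 23.3 CPM in *Nlrp5*+/+ NSN and 5.84 to 8.48 CPM in *Nlrp5*+/+ SN oocytes. Granulosa and theca signal was thus highest in oocytes 13 and 14, which also share a first sequencing index, and oocytes 29, 30 and 31 share another. The comparison of 29 and 30 with 31 therefore stays within 1 index and leaves out the 3 null oocytes with the most granulosa signal, and its value is given beside each named gene past 2-fold that is below 2-fold or turns there, and beside each list whose median turns there. No granulosa or theca marker was at 0 in all 6 oocytes, and the part of these cells in the results was not tested beyond that comparison.

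More genes were lower than higher in SN among the large stage differences of null oocytes. Counts were divided by size factors, and a stage difference is the log2 ratio of the mean normalized count in SN to that in NSN oocytes, after adding 1 to each. A gene was taken as measured when its mean over the oocytes compared reached 10. Of 13700 such genes, 803 (5.86%) were at least 2-fold lower in SN with no overlap between the oocytes of the stages, and 276 (2.01%) were at least 2-fold higher. With the fold alone the shares were 10.9% (1495 genes) lower and 3.36% (461) higher. With absence of overlap alone they were 10.3% (1417) lower and 10.1% (1378) higher. The median gene differed by -0.04 on the log2 scale, and 52.8% of genes were lower and 47.2% higher at any size, so the excess of lower genes lies among large differences. In *Nlrp5*+/+ oocytes, 602 of 14013 genes (4.30%) were at least 2-fold lower in SN and 222 (1.58%) higher by the same rule. Within 1 index, 1188 of 13667 genes (8.69%) were lower and 843 (6.17%) higher by this rule, so the excess of lower genes was smaller there. Counts depend on how many oocytes must not overlap, and without oocyte 31 they were 1874 lower and 690 higher, without oocyte 7 1231 and 578, and without oocyte 14 862 and 561.

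**Figure D1:**
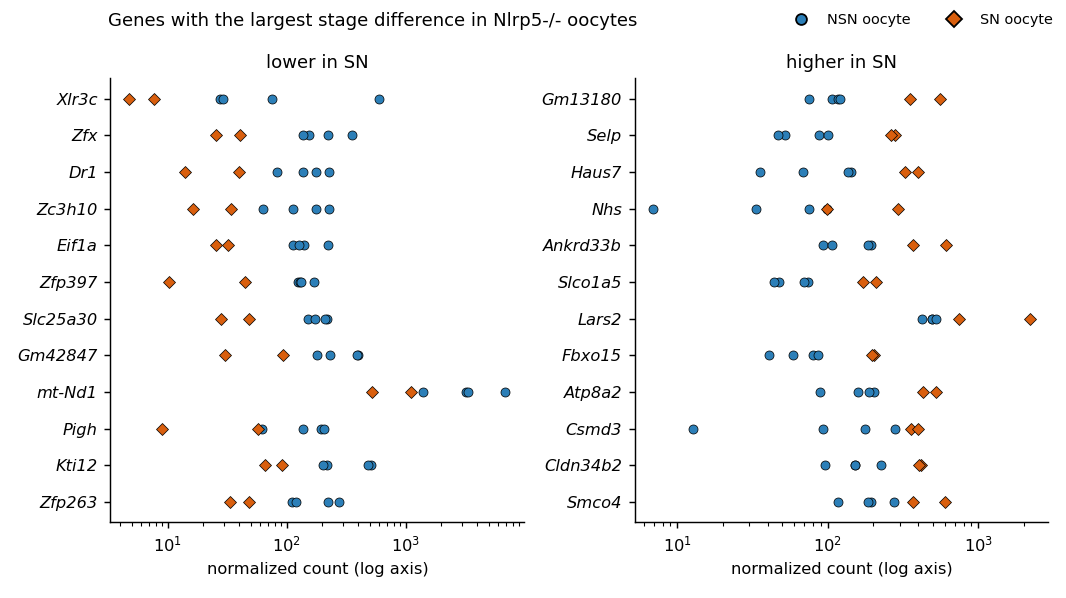
Normalized counts (log axis) in each *Nlrp5*-/- oocyte of the 12 genes with the largest difference in each direction among those with a mean of at least 100 and no overlap, NSN oocytes as blue circles and SN oocytes as orange diamonds. In the panel of genes lower in SN both SN oocytes lie to the left of all NSN oocytes, and in that of genes higher in SN to the right. For *Xlr3c* 1 NSN oocyte stands at 599 and the other 3 at 75.9 or less.

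Values per oocyte are given below in the order 13, 14, 29 and 30 for NSN and 7 and 31 for SN. Each genotype was scaled on its own, so normalized counts compare stages within a genotype and not levels between genotypes. *Zfx*, an X-linked zinc finger transcription factor (chrX:94074631-94123702, minus strand, GRCm38), had normalized counts of 154, 357, 138 and 224 in the NSN oocytes, then 25.5 and 40.9 in the SN oocytes. It was 6.41-fold lower in SN (log2 -2.68), no SN oocyte reached the level of an NSN oocyte, and within 1 index the log2 difference was -2.10. The same gene ran from 172 to 684 over the NSN and 25.4 to 52.3 over the SN oocytes of the *Nlrp5*+/+ genotype. *Slc25a30*, a mitochondrial carrier family member (chr14:75760117-75787037, minus strand), had counts of 150.2, 218, 173 and 209 in the NSN oocytes, then 28.1 and 48.4 in the SN oocytes, a 4.81-fold lower level in SN, and the 4 NSN oocytes lay close together. *Dr1*, whose product represses RNA polymerase II initiation, read 225, 177, 83.6 and 138 in the NSN oocytes, then 14 and 39.5 in the SN oocytes (log2 -2.50, and -2.07 in *Nlrp5*+/+). For *Zc3h10*, which encodes a zinc finger RNA-binding protein, the counts were 62.9, 227, 112 and 178 in the NSN oocytes, then 34.4 and 16.4 in the SN oocytes (log2 -2.47). *Zfp397* and *Zfp263*, both zinc finger factors, differed by -2.29 and -2.13, against -1.61 and -2.41 in *Nlrp5*+/+ oocytes.

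Other genes of this group have various roles. *Eif1a*, for a translation initiation factor with close copies elsewhere in the genome that could share its reads, read 139.7, 221, 114 and 126 in the NSN oocytes, then 25.5 and 32 in the SN oocytes (log2 -2.35). *Pigh*, needed for glycosylphosphatidylinositol anchors, stood at 196, 206, 62.3 and 137 in the NSN oocytes, then 8.93 and 57.2 in the SN oocytes, and its higher SN oocyte came close to its lowest NSN oocyte. The log2 difference of *Pigh* was -2.15, and -0.77 within 1 index. *Kti12*, which takes part in tRNA modification, was 4.43-fold lower with 220.1, 513, 202 and 482 in the NSN oocytes, then 66.3 and 92 in the SN oocytes, against a log2 difference of -1.01 in *Nlrp5*+/+ oocytes. The unnamed gene *Gm42847* differed by -2.26. *Xlr3c*, one of several near-identical X-linked genes whose reads counting can split, had the largest value (-4.67), with counts of 599, 75.9, 27.4 and 29.3 in the NSN oocytes, then 7.65 and 4.77 in the SN oocytes. Its size depended on oocyte 13, and within 1 index, where that oocyte is absent, it was -2.36. In *Nlrp5*+/+ oocytes it overlapped between the stages (3.44 to 965 over the NSN and 60 to 318 over the SN oocytes).

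Of the genes higher in SN, *Selp* and *Haus7* also led in *Nlrp5*+/+ oocytes. *Selp*, for the adhesion receptor P-selectin (chr1:164115264-164150026, plus strand), had normalized counts of 87.3, 51.8, 100.3 and 46.4 in the NSN oocytes, then 281 and 262 in the SN oocytes. Both SN oocytes were thus above every NSN oocyte, by 3.76-fold on average (log2 1.91, and 2.76 in *Nlrp5*+/+ and 1.92 in *Nlrp5*+/- oocytes). *Haus7*, a subunit of the augmin complex that nucleates spindle microtubules (chrX:73437315-73459044, minus strand), stood at 143, 68.3, 135 and 35.4 in the NSN oocytes, then 396 and 328 in the SN oocytes, 3.75-fold higher in SN. *Gm13180*, an unnamed gene, had the largest difference with 75.1, 106, 117 and 121 in the NSN oocytes, then 353 and 557 in the SN oocytes (log2 2.11, and 1.33 in *Nlrp5*+/+). *Slco1a5*, an organic anion transporter, read 47.2, 44.2, 74.5 and 69.7 in the NSN oocytes, then 209 and 172 in the SN oocytes. *Nhs*, a regulator of actin and cell shape, read 33.2, 6.95, 98.8 and 75.2 in the NSN oocytes, then 99.5 and 294 in the SN oocytes. For *Nhs* the lower SN oocyte exceeded the highest NSN oocyte by less than 1 count.

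The remaining genes of this group were *Ankrd33b* (log2 1.76), the F-box gene *Fbxo15* (1.57), the phospholipid flippase *Atp8a2* (1.57), *Csmd3* (1.42), the claudin-like *Cldn34b2* (1.38) and *Smco4* (1.32, but 0.69 within 1 index). All 6 were also higher in SN by their means in *Nlrp5*+/+ oocytes, by 0.73 to 2.33. *Lars2*, the mitochondrial leucyl-tRNA synthetase, was the exception. Without NLRP5 it read 496, 495, 424 and 523 in the NSN oocytes, then 2194 and 745 in the SN oocytes (log2 1.60), whereas the *Nlrp5*+/+ difference was -1.17 over oocytes that ranged from 770.1 to 18458 over the NSN and 586 to 7883 over the SN oocytes and overlapped. Within 1 index the null difference of *Lars2* was 0.67, so the size depends on SN oocyte 7.

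The promoters of the 4 genes that led in both null and *Nlrp5*+/+ oocytes, 2 higher and 2 lower in SN, are printed to show what their start regions hold. Each runs from 250 bases before to 50 bases after the most upstream start in RefSeq (build GRCm38.p6), 5′ to 3′ on the gene's strand, and capitals mark GC boxes (GGGCGG) and CCAAT boxes (CCAAT) on either strand. The start used in oocytes may lie elsewhere.

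Selp promoter, chr1:164115014-164115313, plus strand: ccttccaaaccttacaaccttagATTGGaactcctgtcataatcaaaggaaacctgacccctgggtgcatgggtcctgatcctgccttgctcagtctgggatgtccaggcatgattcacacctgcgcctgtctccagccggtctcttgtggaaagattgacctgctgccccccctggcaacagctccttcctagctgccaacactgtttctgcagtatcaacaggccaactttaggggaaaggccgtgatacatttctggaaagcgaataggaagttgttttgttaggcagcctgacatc

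Haus7 promoter, chrX:73458980-73459279, minus strand: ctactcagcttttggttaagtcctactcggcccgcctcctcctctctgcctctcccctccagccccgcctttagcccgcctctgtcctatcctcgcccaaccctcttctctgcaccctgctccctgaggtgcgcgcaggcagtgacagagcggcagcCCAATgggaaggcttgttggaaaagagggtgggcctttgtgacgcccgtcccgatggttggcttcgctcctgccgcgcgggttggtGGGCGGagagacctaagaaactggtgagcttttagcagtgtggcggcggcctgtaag

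Zfx promoter, chrX:94123718-94124017, minus strand: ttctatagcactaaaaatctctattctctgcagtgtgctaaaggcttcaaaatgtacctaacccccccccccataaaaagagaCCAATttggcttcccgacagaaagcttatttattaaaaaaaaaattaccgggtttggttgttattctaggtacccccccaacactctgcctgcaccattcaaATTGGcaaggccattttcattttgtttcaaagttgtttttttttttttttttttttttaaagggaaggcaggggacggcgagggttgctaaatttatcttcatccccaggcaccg

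Slc25a30 promoter, chr14:75786988-75787287, minus strand: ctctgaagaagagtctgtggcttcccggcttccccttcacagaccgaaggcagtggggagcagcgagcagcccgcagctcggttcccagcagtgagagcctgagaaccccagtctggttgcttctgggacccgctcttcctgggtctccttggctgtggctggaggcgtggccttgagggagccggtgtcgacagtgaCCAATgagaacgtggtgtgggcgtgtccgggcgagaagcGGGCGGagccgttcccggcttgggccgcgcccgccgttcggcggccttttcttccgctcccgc

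The *Selp* window holds 1 CCAAT box and no GC box, and the *Haus7* and *Slc25a30* windows 1 of each. In *Zfx*, which has 2 starts in the table, the window shown holds 2 CCAAT boxes and no GC box, with a GC content of 40%. Such windows matched by symbol for 10188 of the 13700 genes, of which 61.3% hold a GC box and 39.5% a CCAAT box at a median GC content of 60.3%. Among the *Nlrp5*+/+ stage genes described next, 261 of 399 windows of genes lower in SN (65.4%, median GC 62.7%) and 47 of 137 of genes higher in SN (34.3%, median GC 51.7%) hold a GC box. Of those that were also past 2-fold and not overlapping in null oocytes, 94 of 154 (61%) and 8 of 31 (25.8%) do. CCAAT boxes were in 41.9% and 28.5% of the windows of the lower and the higher genes. The ETS core CCGGAA was in 29.3% and 11.7%, against 27.9% of all, and the NOBOX element TAATTG in 4.01% and 10.9%, against 5.13%. Of the 154 and 31 windows also past both conditions in null oocytes, 40.9% and 25.8% hold a CCAAT box and 36.4% and 6.45% the ETS core. The NOBOX element was in 1.95% and 3.23% of them, so its larger share among higher genes was not seen there. The genes with fewer GC boxes also had the lower GC content, whose part in the shares was not tested, and a match is not evidence of binding.

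Most stage genes of *Nlrp5*+/+ oocytes differed in the same direction without NLRP5. Stage genes were those at least 2-fold different and not overlapping in *Nlrp5*+/+ oocytes, with the marker genes used for staging left out, which gave 553 genes lower and 221 higher in SN. They were chosen on *Nlrp5*+/+ oocytes and use no null oocyte, so their size in *Nlrp5*+/+ is inflated by the choice while that in null oocytes is not. Of the 553 lower genes, 526 were measured in null oocytes and 510 of them (97.0%) were lower in null SN oocytes, against 52.8% of all genes. At least 2-fold lower were 302 (57.4%, against 10.9%), 270 did not overlap (51.3%, against 10.3%), and 214 met both conditions (against 5.86% of all genes). Their median log2 difference was -1.13 in null oocytes, with a middle range of -1.71 to -0.66, beside -1.70 in the *Nlrp5*+/+ oocytes they were chosen on and -1.09 in *Nlrp5*+/- oocytes. Within 1 index, 462 of 520 (88.8%, against 50.9% of all genes) were lower, with a median of -0.82.

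Genes higher in *Nlrp5*+/+ SN oocytes were mostly higher in null SN oocytes too. Of the 221, 195 were measured and 167 (85.6%) were higher in null SN oocytes, against 47.2% of all genes. At least 2-fold higher were 72 (36.9%, against 3.36%), 66 did not overlap (33.8%, against 10.1%), and 49 met both conditions (against 2.01% of all genes). The median was 0.73 in null oocytes (middle range 0.28 to 1.13), 1.64 in *Nlrp5*+/+ and 0.84 in *Nlrp5*+/- oocytes. Within 1 index, 168 of 199 (84.4%, against 49.1%) were higher, with a median of 0.77, and without SN oocyte 31 the median was 0.42. In both directions the null median was nearer to 0 than that of the *Nlrp5*+/+ oocytes used for the choice, and whether the sizes differ between genotypes was not tested. Over 13082 genes measured in both genotypes, outside the staging markers, the stage differences in null and *Nlrp5*+/+ oocytes had a Pearson correlation of 0.584 across genes, which are not independent replicates, and 68.5% had the same sign. Within 1 index the correlation was 0.446.

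**Figure D2:**
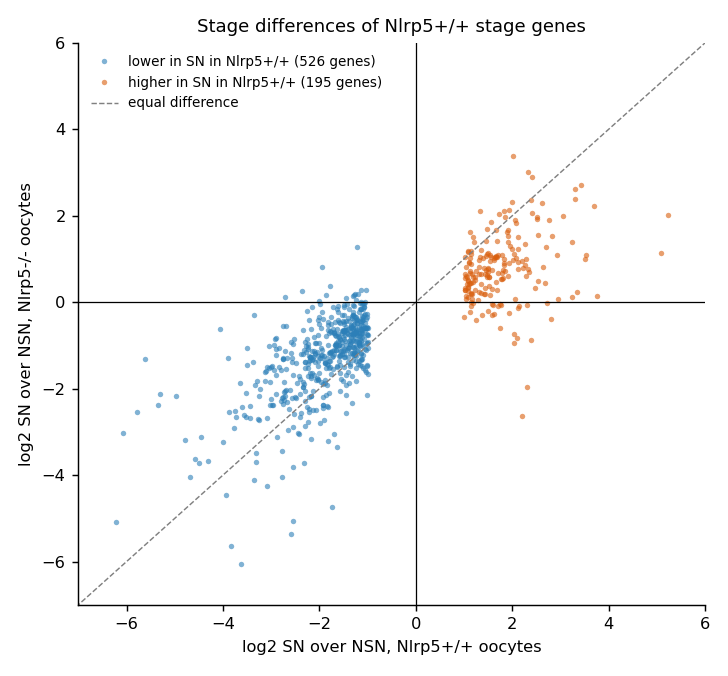
Log2 ratio of SN to NSN for the *Nlrp5*+/+ stage genes, in *Nlrp5*+/+ oocytes on the horizontal and in *Nlrp5*-/- oocytes on the vertical axis, 1 point for each gene, blue for genes lower and orange for genes higher in SN in *Nlrp5*+/+. Of the blue points 510 of 526 lie below 0 on the vertical axis and of the orange points 167 of 195 above it.

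Each oocyte was also given 1 score, the mean log2 level of the 553 genes lower in SN less that of the 221 higher in SN. For this score, counts were scaled over all 33 oocytes of the series together and not by genotype. NSN oocytes 13, 14, 29 and 30 scored 0.88, 2.39, 0.44 and 1.61, and SN oocytes 7 and 31 scored -0.86 and -0.91. The null stages did not overlap, and the mean was 1.33 ± 0.85 (SD, 4 oocytes) in NSN and -0.88 in SN. By comparison, *Nlrp5*+/+ oocytes, on which the genes were chosen, scored 1.56 to 3.74 in NSN and -2.28 to -1.50 in SN, so that both null SN oocytes lay above every *Nlrp5*+/+ SN oocyte. *Nlrp5*+/- oocytes scored -0.21 to 2.67 in NSN and -1.90 to -0.30 in SN, a range that holds all 6 null oocytes. The score of NSN oocytes 13 and 29, the shallowest libraries, was the lowest of the 4.

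**Figure D3:**
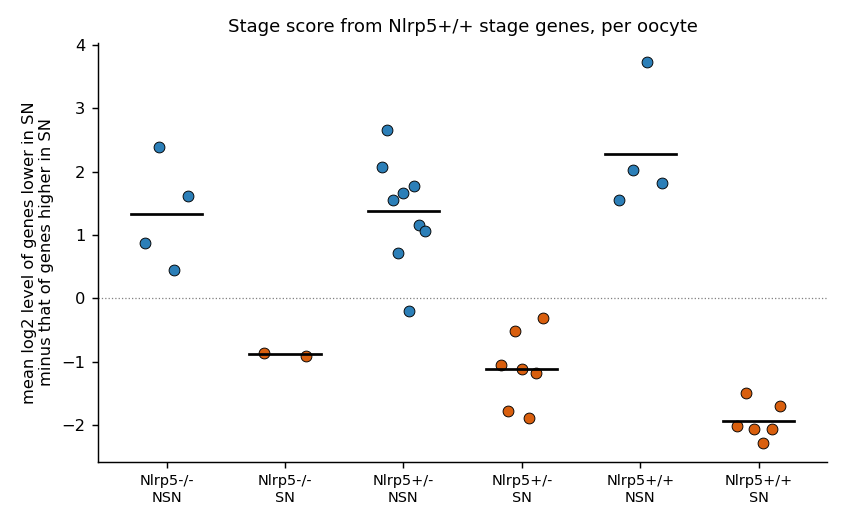
Stage score of every staged oocyte by genotype and stage, in log2 units, with NSN in blue, SN in orange and the mean as a line. The 4 *Nlrp5*-/- NSN oocytes sit between 0.44 and 2.39 and the 2 SN oocytes at -0.86 and -0.91. The genes were chosen on the *Nlrp5*+/+ oocytes, whose groups stand farther apart.

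Of the 10 genes with the largest *Nlrp5*+/+ differences in each direction, 8 lower and 5 higher genes did not overlap between the null stages (against 10.3% and 10.1% of all genes). *Ugdh*, which makes UDP-glucuronate, read 96.1, 199.8, 135 and 173 in the NSN oocytes, then 44.6 and 78.4 in the SN oocytes of the null genotype, 2.43-fold lower in SN (log2 -1.28, -0.95 within 1 index), against a log2 difference of -3.89 in *Nlrp5*+/+. *Klhl21*, an adaptor of CUL3 ubiquitin ligases, read 383, 796, 251 and 436 in the NSN oocytes, then 114 and 140.4 in the SN oocytes (log2 -1.87 against -3.65). *Syncrip*, an RNA-binding protein of the hnRNP family, read 222, 164, 80.6 and 111 in the NSN oocytes, then 39.5 and 26.6 in the SN oocytes (log2 -2.09 against -3.53). In all 3 both null SN oocytes were below every null NSN oocyte. The imprinted transcript *Kcnq1ot1*, which lies antisense in *Kcnq1* so that reads of both cannot be told apart unless counting used strand, read 38.4, 76.5, 30.4 and 125 in the NSN oocytes, then 15.3 and 6.81 in the SN oocytes (log2 -2.51). *Map3k2*, a kinase of stress signalling, and *Shmt1*, an enzyme of folate metabolism, were lower in SN without overlap (log2 -1.82 and -1.30, the latter -0.97 within 1 index). For the homeobox repressor *Tgif1* (-1.68, but -0.68 within 1 index) and *Zmym5* (-1.53, but -0.76), SN oocyte 31 overlapped with NSN oocyte 29.

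On the higher side, *Lmo3*, a LIM-only transcription cofactor, read 156, 3.16, 163 and 25.7 in the NSN oocytes, then 185 and 185 in the SN oocytes of the null genotype, and NSN oocytes 13 and 29 were already near the SN level. Its log2 difference was 1.08 (0.99 within 1 index), against 3.54 in *Nlrp5*+/+, where the range was 3.73 to 61.9 over the NSN and 339.8 to 492 over the SN oocytes. *Pnma5* read 124, 26.6, 284 and 162 in the NSN oocytes, then 309 and 411 in the SN oocytes (log2 1.26, 0.90 within 1 index, against 2.71), again with no overlap. *Chst11*, a chondroitin sulfotransferase, was higher by 1.02 without overlap. *Atrnl1* (1.34), the synaptic scaffold gene *Rims1* (0.92), *Gm8817* (0.81) and the mannosidase gene *Man1a* (1.83) were higher by their means, and in each the stages overlapped. *Calb1*, for the calcium buffer calbindin, showed almost no stage difference in null oocytes, with 238, 129.6, 222 and 170.5 in the NSN oocytes, then 138 and 262 in the SN oocytes (log2 0.07), whereas it ran from 54.1 to 92.1 over the NSN and 208 to 352 over the SN oocytes of *Nlrp5*+/+. Without NSN oocyte 14 or SN oocyte 31 the value was below 0 (-0.07 and -0.46).

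Of the *Nlrp5*+/+ stage genes, 28 of 195 higher and 16 of 526 lower genes had the opposite sign in null oocytes (against 52.8% of all genes lower and 47.2% higher). Past 2-fold in that direction were 2 and 1 of them (against 10.9% and 3.36%). The farthest was *Zc3hav1*, which encodes an antiviral RNA-binding protein. Without NLRP5 it read 45.4, 36, 22.8 and 24.4 in the NSN oocytes, then 1.28 and 7.5 in the SN oocytes (log2 -2.62), the reverse of 1.87 to 18.3 over the NSN and 23.6 to 108 over the SN oocytes of *Nlrp5*+/+ (log2 2.20). *Zeb2*, a repressor of epithelial genes that is also active in stroma, read 78.6, 107, 13.7 and 6.72 in the NSN oocytes, then 21.7 and 3.41 in the SN oocytes, so that the highest oocytes were NSN 13 and 14, those with the most granulosa and theca signal, and the part of that signal in the difference was not tested. *Plk2*, *Htr3a* and *Pax6*, all low, had null means of 9.81, 13.4 and 25.3 over the NSN oocytes, and of 22.6, 14.9 and 13.3 over the SN oocytes. *Plk2* was at 0 in all *Nlrp5*+/+ NSN oocytes and at 18.6 to 47 in SN, and without SN oocyte 31 its null difference turned from 1.13 to -0.54.

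Among lower genes the gap was widest for *Wnt9a*, *Alg5*, *Nmrk1*, *Nipsnap3b* and *Shisa2*. *Wnt9a* was at 0 in every *Nlrp5*+/+ SN oocyte but at 1.28 and 30.7 in the null SN oocytes, and its null NSN counts ran from 12.2 to 84.7. Its log2 difference was -1.33 over all 6 oocytes but 0.26 within 1 index, so its direction turned there. *Nmrk1*, a nicotinamide riboside kinase, did keep a non-overlapping difference with 55.9, 114, 27.4 and 84.9 in the NSN oocytes, then 6.38 and 16.4 in the SN oocytes (log2 -2.53). For *Alg5*, an enzyme of N-glycan synthesis, the counts were 8.73, 48, 38 and 40.3 in the NSN oocytes, then 16.6 and 26.6 in the SN oocytes, where oocyte 13 was lower than both SN oocytes. Over all 13245 genes measured in both genotypes, staging markers included, 541 did not overlap between the stages in the same direction in both, 292 of them past 2-fold in both, and 3 did not overlap in opposite directions. These 3, named after their values were seen, were *Zc3hav1*, *Myzap* (null log2 1.28, *Nlrp5*+/+ -1.22) and *Lama3* (0.81 and -1.96), all with means below 100.

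The comparison was also read from the null side. Of the 803 genes lower in null SN oocytes, 43 were staging markers, and 688 of the other 760 were measured in *Nlrp5*+/+ oocytes. There, 631 (91.7%, against 47.1% of all *Nlrp5*+/+ genes) had the same sign, 356 were at least 2-fold lower (against 9.21%) and 230 did not overlap (against 5.90%), with a median of -1.02 beside -1.51 in the null oocytes they were chosen on. Of the 276 higher genes, 1 was a staging marker, 266 of the others were measured in *Nlrp5*+/+ oocytes and 230 (86.5%, against 52.9%) had the same sign there, with medians of 0.78 and 1.31. In *Nlrp5*+/- oocytes 91.6% of the lower and 70% of the higher genes had the same sign, against 53.4% and 46.6% of all genes.

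Lists of transcription control and of the mRNA store held members that differed in both directions in null oocytes. Each count of members without overlap is to be read against 10.1% of all genes higher and 10.3% lower. Among the genes named below from these lists, *Taf1c*, *Kdm5a*, *Uhrf2*, *Dnmt1*, *Dnmt3a*, *Tle6*, *Khdc3*, *Padi6*, *mt-Cytb*, *mt-Nd5* and *mt-Co1* were chosen after their values were seen, the others by a rule of size. Of 18 measured oocyte transcription factors, 9 were higher and 9 lower, with a median of 0.06 (-0.08 within 1 index and -0.16 without oocyte 7) against -0.04 for all genes, and 3 were lower and 4 higher without overlap, 1 of the higher ones a staging marker. *Tbpl2*, the oocyte form of TATA-binding protein, read 156, 269.9, 173 and 211 in the NSN oocytes, then 48.5 and 104 in the SN oocytes (log2 -1.40, -0.87 within 1 index, and -1.89 in *Nlrp5*+/+), and *Sp1* differed by -0.95. *Foxo3*, which keeps follicles dormant, was higher with 3130.3, 1563, 3022 and 2296 in the NSN oocytes, then 4098 and 3562 in the SN oocytes. Of 31 genes of RNA polymerase II and elongation, 8 were higher and 1 lower without overlap, against 10.1% and 10.3% of all genes (median 0.16, 0.18 within 1 index and 0.08 without oocyte 31), and the higher ones include the subunits *Polr2f* (1.00) and *Polr2d* (0.73). *Taf1c*, a factor of ribosomal RNA transcription, was 5.50-fold lower with 52.4, 199.8, 79 and 108 in the NSN oocytes, then 19.1 and 19.1 in the SN oocytes, while the 35 genes of its list had a median of 0.03 (-0.06 within 1 index).

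Of 18 genes of mRNA storage, 3 were lower and 3 higher without overlap, against 10.3% and 10.1% of all genes, and 1 of the lower genes is a staging marker. *Ddx6*, a helicase of P-bodies, read 711, 943, 474 and 787 in the NSN oocytes, then 236 and 231 in the SN oocytes (log2 -1.64). *Tob1* (-0.98) and *Ythdf2* (-0.62), which recruit the deadenylase, were lower without overlap, as in *Nlrp5*+/+ oocytes (-1.60 and -1.13), among 22 decay genes with a median of -0.09 (0.07 within 1 index, 0.12 without oocyte 7 and -0.23 without oocyte 31). In the small RNA list (19 genes, median -0.22, -0.15 within 1 index, -0.09 without oocyte 7 and -0.44 without oocyte 31, 5 lower and 1 higher without overlap, against 10.3% and 10.1% of all genes), *Ddx4*, the germ cell helicase VASA, read 583, 938, 849.7 and 793 in the NSN oocytes, then 194 and 347 in the SN oocytes and *Dgcr8*, of the microRNA processor, differed by -0.87. Of 13 genes of DNA methylation 9 were higher and 4 lower, 2 in each direction without overlap, at a median of 0.08 (-0.16 within 1 index). *Uhrf2* (-2.22) and *Zfp445*, a guard of imprints (-1.12, -0.62 within 1 index), were at least 2-fold lower, against 10.9% of all genes, *Zfp57*, another guard of imprints (0.45), and *Dnmt3l*, a cofactor of methylation (0.38), were higher without overlap, and the methyltransferase genes *Dnmt1* (0.11) and *Dnmt3a* (0.01) were level. The histone demethylase *Kdm5a*, among 7 measured genes of zygotic activation, read 161, 149, 62.3 and 135 in the NSN oocytes, then 14 and 7.5 in the SN oocytes (log2 -3.44).

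Of 29 chaperones, 8 were lower without overlap (against 10.3% of all genes), none was higher without overlap and 4 were at least 2-fold lower, at a median of -0.17 that was -0.02 within 1 index, -0.03 without oocyte 7, -0.08 without oocyte 29 and -0.40 without oocyte 31. The list holds 2 genes used for staging, *Fkbp4* and *Hsph1*, both among the 8, and without them 6 of 27 were lower without overlap and 3 at least 2-fold lower. *Hsf2*, a heat shock transcription factor, read 147, 191, 198 and 282 in the NSN oocytes, then 17.9 and 106 in the SN oocytes (log2 -1.70). *Cct6a* and *Cct4*, subunits of the chaperonin that folds actin and tubulin, differed by -1.10 and -1.02 (by -0.61 and -0.60 within 1 index, and in *Nlrp5*+/+ by -2.32 and -1.67), and *Fkbp4* by -1.36. *Ldhc*, a germ cell lactate dehydrogenase and also a staging marker, read 649.8, 1951, 567 and 842 in the NSN oocytes, then 108 and 266 in the SN oocytes. Of the 12 genes of the subcortical maternal complex, 6 were higher and 6 lower, none by 2-fold, with a median of -0.01 (0.04 within 1 index). Its members *Tle6* (0.08), *Khdc3* (0.19) and *Padi6* (0.08) overlapped between the stages, and *Nlrp14* was lower without overlap (log2 -0.60). Oocyte-secreted factors (9 genes) had a median of 0.26, with 0.01 within 1 index and 0.15 without oocyte 14. They include 2 staging markers, 1 of which, *Oosp1*, is the only member without overlap, and the other, *Oosp3*, sets the value within 1 index. The Tcl1 family (6 of 6 higher, 3 without overlap, 1 of them a staging marker, median 0.54, 0.21 within 1 index and 0.23 without oocyte 7) was led by *Tcl1b5* with 218, 296, 292 and 285 in the NSN oocytes, then 538 and 548 in the SN oocytes. Meiotic genes had a median of 0.10 (0.05 without oocyte 14 and 0.0017 without oocyte 31), and the phosphatase *Cdc25c* was lower in null SN oocytes (-0.78, no overlap) while in *Nlrp5*+/+ the means differed by 0.58 with overlap. The linker histone of oocytes, *H1f8*, was higher by 0.70 without overlap (0.62 in *Nlrp5*+/+).

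Large housekeeping lists had medians above 0, against -0.04 for all genes. Of 76 nuclear-encoded subunits of oxidative phosphorylation, 65 were higher, 16 without overlap (against 10.1% of all genes) and 1 by 2-fold (against 3.36%), with a median of 0.51 (0.49 within 1 index, 0.32 when counts were summed over the oocytes of a stage, 0.28 in *Nlrp5*+/+ and -0.15 in *Nlrp5*+/- oocytes). Their summed level was 5824, 10682, 5498 and 7867 CPM in the NSN oocytes, then 9905 and 8825 CPM in the SN oocytes, so NSN oocyte 14 was above both SN oocytes here too. *Atp5e*, a subunit of ATP synthase, read 416, 1003, 369 and 1071 in the NSN oocytes, then 1576 and 1557 in the SN oocytes, whereas *Uqcrc1*, a core protein of complex III and a staging marker, was lower (log2 -1.24, but -0.39 within 1 index). Of 79 ribosomal proteins 64 were higher, only 3 without overlap, with a median of 0.38 (0.71 within 1 index, 0.15 in *Nlrp5*+/+ and -0.15 in *Nlrp5*+/- oocytes). Their summed level was 5938 to 9569 CPM in NSN oocytes 13, 29 and 30, 23173 CPM in NSN oocyte 14, and 15256 and 11801 CPM in SN oocytes 7 and 31, so NSN oocyte 14 was above both SN oocytes. The list median was 0.97 without oocyte 14 and 0.18, 0.16 and 0.17 without oocytes 13, 29 and 7, and 0.05 when counts were summed over the oocytes of a stage. Single members went against their list. *Rpl9*, of the large ribosomal subunit, was lower without overlap with 358, 1422, 220.4 and 270.1 in the NSN oocytes, then 216 and 215 in the SN oocytes (log2 -1.40, but -0.17 within 1 index), while *Rps12* was higher by 1.02. Of 32 proteasome subunits 9 were higher and 2 lower without overlap, against 10.1% and 10.3% of all genes, at a median of 0.19 (0.14 within 1 index and 0.11 without oocyte 7), with *Psma7* higher by 0.94 and *Psmd13* lower with 164, 408, 144 and 199.8 in the NSN oocytes, then 56.1 and 110.4 in the SN oocytes (log2 -1.45, -0.62 within 1 index, and -1.17 in *Nlrp5*+/+).

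Lists of other oocyte functions had medians between -0.33 and 0.29. In the zona pellucida and fertilization list (7 genes, median -0.33, also within 1 index, -0.17 without oocyte 31 and -0.22 without oocyte 7) 4 were lower without overlap (against 10.3% of all genes, and 1 of them, *Astl*, a staging marker), among them *Cd9*, an egg membrane protein needed for sperm fusion, with 1967, 2732, 1754 and 1930.5 in the NSN oocytes, then 1616 and 1245 in the SN oocytes, and *Zp2*, a coat glycoprotein (-0.34). Of 27 genes of cohesin and the spindle checkpoint (median 0.02, 0.10 without oocyte 13 and -0.05 without oocyte 14), *Pds5b*, a cohesin regulator, was 2.45-fold lower with 459, 329, 409 and 306 in the NSN oocytes, then 119 and 187 in the SN oocytes (log2 -1.29, -0.91 within 1 index), while *Mad1l1* (0.68) and *Smc1a* (0.51) were higher without overlap. *Pgam1*, a glycolytic mutase, was lower without overlap (log2 -1.28, -0.62 within 1 index) in a list of 17 with a median of 0.02 (0.18 without oocyte 14 and -0.10 without oocyte 7). Of 31 histone modifiers (median -0.10, but 0.06 without oocyte 13, -0.0025 without oocyte 14 and 0.08 with medians over oocytes) the methyltransferase genes *Nsd1* (0.60) and *Setd2* (-0.50) differed in opposite directions without overlap. Histone variants and their chaperones (21 genes, 0.21, 0.12 without oocyte 13, 4 higher without overlap), BCL2 family genes (9 genes, 0.29, but -0.0037 without oocyte 31 and -0.19 with no filter beyond 1 count), splicing factors (32 genes, 0.10, 0.21 without oocyte 31), F-box and ubiquitin ligase genes (19 genes, -0.08, 0.07 within 1 index), steroid synthesis (19 genes, -0.08, but 0.01 without oocyte 7), zygotic activators (7 genes, 0.04, -0.11 within 1 index and -0.27 without oocyte 7) and oocyte identity markers (8 genes, -0.11) were the others. *Bax*, which promotes cell death, was higher with 69.9, 113, 94.2 and 147 in the NSN oocytes, then 150.5 and 153 in the SN oocytes, and *Cul4a*, a ubiquitin ligase scaffold, lower (log2 -0.72), both without overlap.

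**Figure D4:**
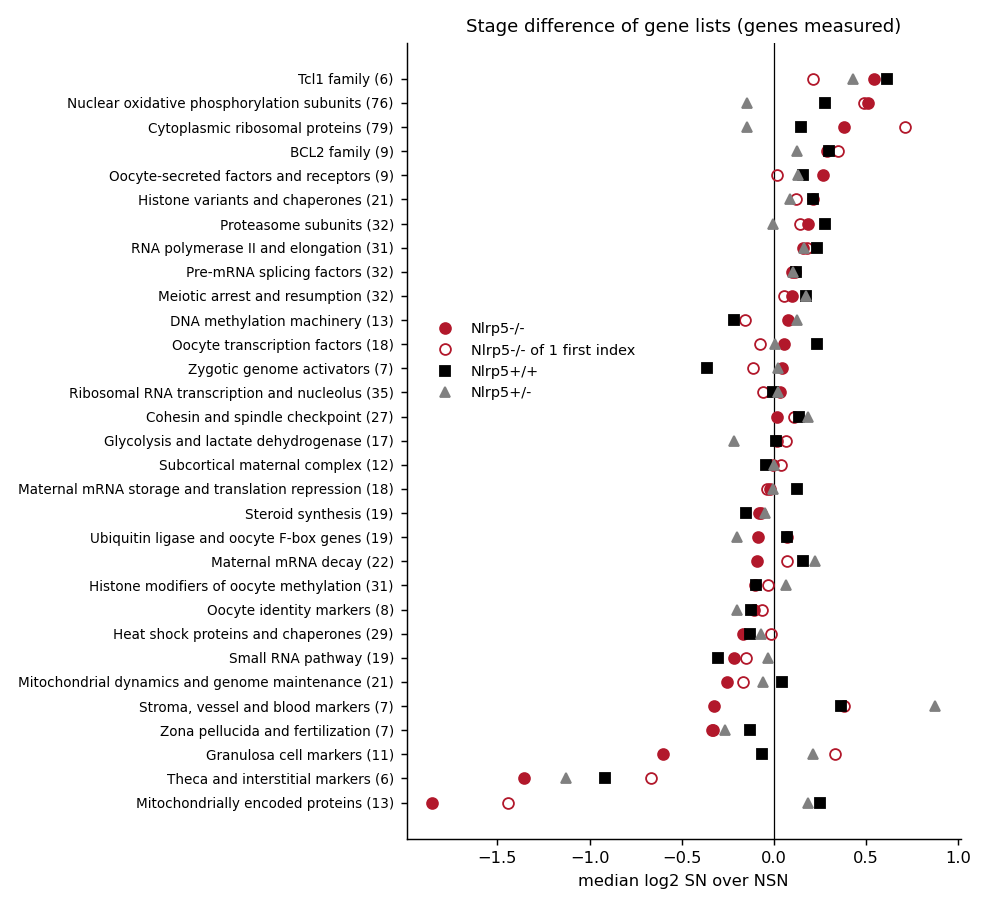
Median log2 ratio of SN to NSN over the measured genes of each of 31 lists (number in brackets) in *Nlrp5*-/- oocytes (filled red circles), within 1 first index (open red circles), in *Nlrp5*+/+ (black squares) and in *Nlrp5*+/- oocytes (grey triangles). Most lists lie within 0.5 of 0 in all of them, and the mitochondrially encoded genes stand apart in *Nlrp5*-/- oocytes at -1.86, against 0.25 in *Nlrp5*+/+.

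Mitochondrially encoded transcripts were lower in null SN oocytes. The 13 protein genes of the mitochondrial genome encode subunits of the respiratory chain and ATP synthase. Counts are relative to the total of a library, so the amount of RNA in an oocyte is not measured. All 13 were lower in SN in null oocytes, 12 by at least 2-fold (against 10.9% of all genes) and 5 without overlap, at a median of -1.86 and of -1.45 within 1 index. Without SN oocyte 31 the median was -2.84. Together they took 3322, 1520, 2627 and 2236 CPM in NSN oocytes 13, 14, 29 and 30 and 667 and 1036 CPM in SN oocytes 7 and 31, 2.85-fold less on average. The 95% Poisson intervals of the SN oocytes, 646 to 688 and 1017 to 1056 CPM, cover counting error only and lie below the lowest NSN oocyte. In *Nlrp5*+/+ oocytes the stages overlapped, with 2070 to 3939 CPM in NSN and 1006 to 3733 CPM in SN, and in *Nlrp5*+/- oocytes with 1402 to 6174 and 2426 to 4199 CPM. The list median was 0.25 in *Nlrp5*+/+ and 0.18 in *Nlrp5*+/- oocytes, although the mean sum was lower in SN in both (3244 and 2523 CPM in *Nlrp5*+/+, 3758 and 3119 CPM in *Nlrp5*+/-). Both null SN oocytes were at or below 1036 CPM, as was 1 of the 6 *Nlrp5*+/+ SN oocytes. Whether the stage difference differs between genotypes was not tested.

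Among single genes, *mt-Cytb*, of complex III, read 4259, 3005, 4104 and 3513 in the NSN oocytes, then 1500.2 and 1419.9 in the SN oocytes (log2 -1.35, and 0.28 in *Nlrp5*+/+). *mt-Nd1* (-2.19), *mt-Nd4* (-1.46), *mt-Nd5* (-0.93) and *mt-Co1* (-1.31) were also lower without overlap. Of these, *mt-Nd1* was lower in SN by its means in the other genotypes too, by -0.87 with overlap in *Nlrp5*+/+ and by -0.66 in *Nlrp5*+/- oocytes. *mt-Atp6* had the largest difference (-4.17), but NSN oocyte 14 lay between the SN oocytes, with 278, 6.95, 255 and 270.1 in the NSN oocytes, then 6.38 and 14.3 in the SN oocytes. Of 21 measured nuclear genes of mitochondrial dynamics and genome maintenance, 15 were lower, 4 without overlap (against 10.3% of all genes) and 2 by 2-fold (against 10.9%), with a median of -0.25 (-0.17 within 1 index and 0.04 in *Nlrp5*+/+). *Tfam*, which packages mitochondrial DNA and starts its transcription, read 292, 332, 304 and 227 in the NSN oocytes, then 72.7 and 139 in the SN oocytes (log2 -1.44, -0.91 within 1 index, and -1.21 in *Nlrp5*+/+), and *Polg*, the mitochondrial DNA polymerase, differed by -0.67.

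**Figure D5:**
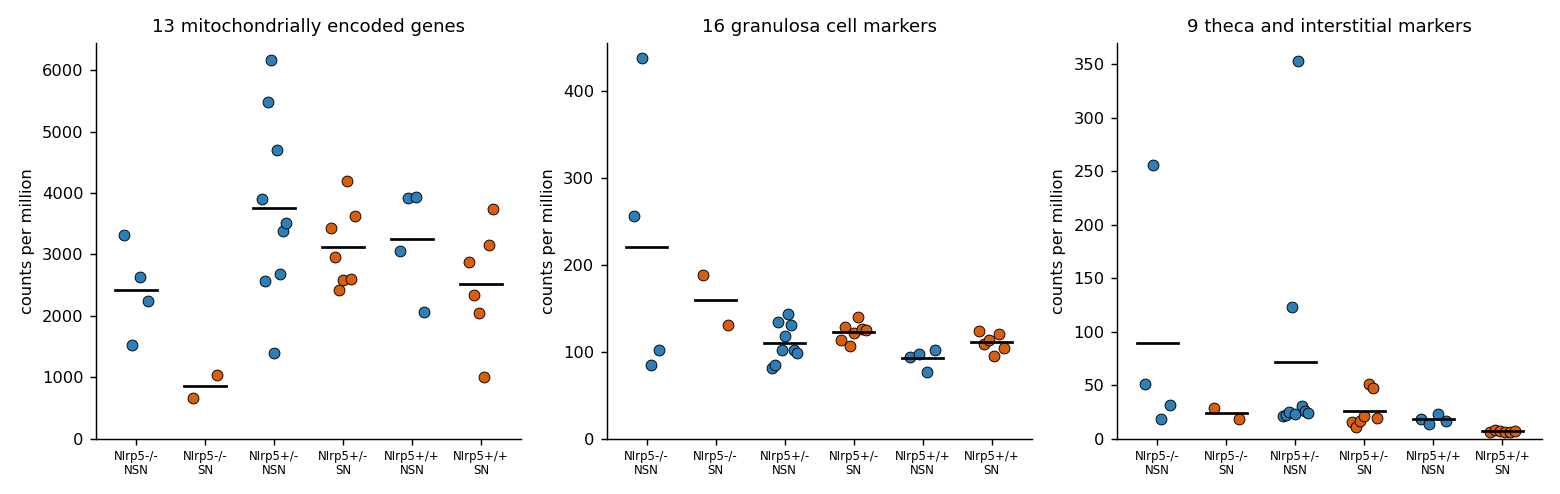
Summed CPM of the 13 mitochondrially encoded genes, of 16 granulosa cell markers and of 9 theca and interstitial markers, 1 point for each staged oocyte, with the mean as a line. The *Nlrp5*-/- SN oocytes lie at 667 and 1036 CPM of mitochondrial transcripts, below all 4 NSN oocytes, and granulosa signal is highest in *Nlrp5*-/- NSN oocytes 13 and 14.

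Markers of the other ovarian cells were mostly lower in SN by their means over all 6 oocytes, and oocytes 13 and 14, with the most granulosa and theca signal, are NSN. The stroma, vessel and blood sum of oocyte 13 was 85.9 CPM, below that of oocytes 29, 30 and 31 (100, 103 and 98.1 CPM). Of 11 measured granulosa genes 4 were at least 2-fold lower (against 10.9% of all genes) and none separated the stages, at a median of -0.60 that was 0.33 within 1 index, 0.22 without oocyte 14, -2.64 without oocyte 7 and -0.08 without oocyte 31. *Gja1*, the gap junction gene connexin 43, read 362, 469.7, 19.8 and 12.2 in the NSN oocytes, then 105 and 19.8 in the SN oocytes (log2 -1.78, but 0.31 within 1 index). *Hsd3b1*, a steroid enzyme of theca cells, read 262, 1253, 51.7 and 53.2 in the NSN oocytes, then 121 and 48.4 in the SN oocytes and differed by -2.24, but by -0.09 within 1 index. Of 6 theca markers 5 were at least 2-fold lower (against 10.9% of all genes, median -1.36, -0.67 within 1 index and -0.56 without oocyte 14) and 1 without overlap, and of 7 stroma, vessel and blood markers none was 2-fold different (median -0.32, but 0.38 within 1 index, 0.18 without oocyte 7, -0.55 without oocyte 13, -0.01 without oocyte 14 and -1.25 without oocyte 31).

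The markers used for staging are given only as a description of the call. Of the 105 that mark NSN, all of them measured, 98 were lower in null SN oocytes, 51 by 2-fold (against 10.9% of all genes) and 58 without overlap (against 10.3%), from which nothing is read since they set the call, at a median of -0.98 (-1.36 in *Nlrp5*+/+). Of the 59 that mark SN, also all measured, 46 were higher, 2 by 2-fold (against 3.36%) and 18 without overlap (against 10.1%), at a median of 0.33 (0.30 in *Nlrp5*+/+). Of the most abundant NSN markers, *Hsph1*, a chaperone, read 3694, 3767, 4062 and 4649 in the NSN oocytes, then 2644 and 2712 in the SN oocytes, and *Astl*, the oocyte protease ovastacin, and *Ran*, a nuclear transport GTPase, were lower without overlap (log2 -0.33 and -0.63), while *Noto* (-0.70) overlapped and *Lrwd1* went the other way (0.50) with overlap. Of the SN markers, *Zbed3*, a member of the maternal complex, and *Oosp1* were higher by 0.45 and 0.69 without overlap, and *Bcl2l10* (0.28), *Oosp3* (0.35) and *Slc23a2* (0.18) overlapped. A score of NSN over SN markers was -2.99, -1.99, -3.13 and -2.69 in the NSN and -4.21 and -3.85 in the SN null oocytes, so the stages did not overlap in it.

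Gene family and chromosome were looked at after the values were seen. Genes named Zfp with a number, most of which encode zinc finger factors, made up 40 of the 803 genes lower in SN (4.98%) and 2 of the 276 higher genes (0.725%), against 288 of 13700 (2.10%). In *Nlrp5*+/+ oocytes they were 29 of 602 lower genes (4.82%). The X chromosome held 13 of the 276 higher genes (4.71%) and 24 of the 803 lower genes (2.99%), against 3.20% of all. The number of genes detected at equal depth was 16640, 18285, 16481 and 17336 in the NSN and 16328 and 16514 in the SN null oocytes, where SN oocyte 31 lay above NSN oocyte 29.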

How the data were processed

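RNA of single GV oocytes was sequenced by the authors from libraries made by scM&T-seq, which separates the mRNA and the DNA of 1 cell. The deposited table holds raw read counts per gene, which the authors made by trimming with Trim Galore and aligning with HISAT2 to GRCm38 (the build given with the data, while the methods name another), and they left out libraries under 4000000 reads. Whether counting used strand is not given in the sources used here. Genotype came from the sample labels. Stages of *Nlrp5*+/+ and *Nlrp5*+/- oocytes were read from the labels of the study's figures, and those of the null oocytes were set with the comparison rather than read there. The study's staging rests on published marker genes (105 NSN and 59 SN) in the same libraries. The authors' tables of DESeq2 fold changes and adjusted p-values between genotypes and their read totals were not used.

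Of 35373 entries 35321 genes were kept, after 52 repeated entries were left out. Counts were divided by median-of-ratios size factors within each genotype, averaged over oocytes with equal weight and compared as log2((SN + 1)/(NSN + 1)) for genes with a mean of at least 10. The stage score and the staging marker score of single oocytes used size factors taken over all 33 oocytes. A gene was counted when it differed at least 2-fold and its oocytes did not overlap. No test of stage or genotype was made, for the labels name no mouse. Only single values far from the rest of their group were flagged, by a cut on the gap to the next value. The computation was also run on simulated counts with known changes as a check of the code, and no result above rests on it. Null libraries held 4225037 to 11416257 counts, and Poisson intervals (95%) cover counting error only.

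Named genes were the 12 largest non-overlapping differences in each direction at a mean of at least 100 in null oocytes, the 10 in each direction in *Nlrp5*+/+ oocytes, the 5 stage genes in each direction farthest from their *Nlrp5*+/+ value, up to 4 members of each of 31 gene lists with a mean of at least 100, *Nlrp5* and *Dppa4*, and the 5 most abundant staging markers of each class. Staging markers were left out of the first 2 of these. The oocytes and lists were chosen with earlier results of these data known. Promoter motifs were chosen after values were seen, and RefSeq windows (GRCm38.p6) matched 10188 of 13700 genes. Alternatives were total-count and trimmed-mean (TMM) scaling, medians, pooled sums, a pseudocount of 5, other folds (1.5 and 4) and filters, keeping the staging markers, the *Nlrp5*+/- reference, the oocytes of 1 first index and leaving out each oocyte. All steps ran in Python 3.11.15 with pandas 2.3.3 and numpy 2.4.6, intervals came from scipy 1.17.1, and plots were drawn with matplotlib 3.10.9.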

Additional observations from a re-analysis of the deposited data

Results flagged for a closer look

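In 5 of 113 groups of oocytes 1 value lay far from the others, where chance gives about 1 in 20 groups. Among null NSN oocytes, the theca and interstitial marker sum of oocyte 14 was 256 CPM, far above the other 3, and its small RNA pathway genes summed to 2289 CPM, below the others (2570.5 to 2623 CPM). Oocyte 29 had the lowest sum of the mRNA storage list, 7578 CPM, and oocyte 13 the lowest normalized count of *Alg5*, 8.73. Among *Nlrp5*+/+ NSN oocytes, stroma, vessel and blood markers summed to 46.2 CPM in oocyte 79, below the others.

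Of 201 genes and lists compared between the genotypes, 1 separated the stages without overlap in both genotypes but in opposite directions. The stage difference of *Zc3hav1* was -2.62 on the log2 scale in null and 2.20 in *Nlrp5*+/+ oocytes. The difference between the genotypes was not tested.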

How the results depend on the processing

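No named gene that was past 2-fold without overlap changed direction, and no cause was tested. Of named genes past 2-fold with overlap, *Wnt9a* (-1.33) and *Gja1* (-1.78) were at 0.26 and 0.31 within 1 first index, and *Plk2* (1.13) was at -0.54 without SN oocyte 31. The 276 genes higher in SN became 843 within 1 first index, 784 at 1.5-fold, 42 at 4-fold, 571 with no filter, 58 at a mean of at least 100 and 356 to 690 with an oocyte left out. The 803 lower genes became 252, 239 and 862 to 1874 at 4-fold, at a mean of at least 100 and with an oocyte left out. Fewer oocytes make absence of overlap easier. For genes higher in *Nlrp5*+/+ SN oocytes the median ran from 0.42 to 0.91 and the number with the same sign from 133 to 178 with an oocyte left out, the low end without SN oocyte 31. It was 65 of 70 at a mean of at least 100, and with the *Nlrp5*+/- reference 21 of 23 with a median of 1.23. For the lower genes the median ran from -1.46 to -0.95 and the number from 468 to 517, and it was 193 of 196 and 70 of 72 under the same settings. The correlation was 0.446 within 1 index, 0.340 with no filter, 0.479 with the *Nlrp5*+/- reference and 0.475 to 0.614 with an oocyte left out. The SN minus NSN difference ran from -1.51 to -1.09 for the staging score, from -1103.5 to -203 for genes detected at full depth, which differs between the libraries, and from -1877 to -1276 CPM for mitochondrially encoded genes. Of 2040 values for 170 named genes 1928 stayed within the spread of the oocytes, and 25 genes and 15 of 31 lists changed sign somewhere. No paired analysis was possible because the labels give the oocytes of the stages no shared replicate numbers and no test was run. With 2 SN oocytes the spread within SN is hardly known.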

Other observations

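The unstaged *Nlrp5*-/- oocyte 15, which shares a first index with NSN oocytes 13 and 14, had a stage score of 0.49 and a staging marker score of -2.94. Its granulosa and theca marker sums were 1132 and 717 CPM and its mitochondrially encoded genes took 175 CPM, below every staged oocyte.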
